A study of Mus musculus with 21 samples.

Results

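Csrp2, Tyrp1, Fbp1, Sowaha, Rit2, Clvs1 and Rasd1 are 7 genes whose transcripts were higher in the sciatic nerve of adult mice carrying a changed Pmp22 gene. They were picked because they rose at postnatal day 60 (P60) in 1 or more of the mutants, so their P60 levels against wild type are given as a description, without a test. All 11 probe sets that the platform annotation assigns to 1 of these genes alone were taken, out of 12422 in the deposited table and 10833 with a single gene symbol. The name "switched on" holds for the data only in part: in P60 wild-type nerve Fbp1 and the probe set of Tyrp1 with the large rise had no array above the floor set for dim signals, whereas the other 5 genes had arrays above it.

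The study measured RNA of mouse sciatic nerve at P4 and at P60 on 21 Affymetrix arrays in 8 groups. KO mice were homozygous for a Pmp22 null allele, TG mice carried a Pmp22 transgene, TR mice carried the Trembler mutation, a point mutation in Pmp22, and WT mice were wild type on a mixed background. There were 3 arrays each for KO, TG, TR and WT at P4, then 2 each for KO, TG and TR and 3 for WT at P60. The labels do not name the promoter or the copy number of the transgene. Each array held the pooled nerves of 4 to 7 mice, so no value belongs to a single animal, and the labels do not say that pools of a group came from separate litters; p-values measure the spread between these pools.

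Pmp22 encodes a membrane protein of compact myelin made by Schwann cells, the glia that wrap peripheral axons. In mice Schwann cells are in the midst of myelinating at P4 and have a mature sheath at P60, and loss, excess or mutation of Pmp22 each gives a demyelinating neuropathy. The 7 genes have unlike known roles: Csrp2 is a LIM domain protein, Tyrp1 an enzyme of melanin synthesis, Fbp1 an enzyme of gluconeogenesis, Rit2 and Rasd1 small GTPases of the Ras family, and Clvs1 a lipid-binding protein of clathrin-coated vesicles described in neurons. Sowaha is an ankyrin repeat protein. In RefSeq on GRCm38.p6 Csrp2 lies on chromosome 10, Tyrp1 and Clvs1 on chromosome 4, Fbp1 on chromosome 13, Sowaha and Rasd1 on chromosome 11 and Rit2 on chromosome 18.

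The values are model-based expression indices, a linear probe-set intensity computed by the authors, with array medians between 177.4 and 209.6. An index under 54.7, the 20th percentile of all values, is called at the floor and was raised to it before log2 was taken. Between 78.6% and 81.2% of the probe sets of an array lay above it. A probe set needed 2 arrays above this floor to be used, and the 10994 that had them were fitted together in limma, and 9 of the 11 member probe sets were among them. The other two, Tyrp1 161538_r_at and 97955_at, were at the floor on all 21 arrays. Of 9 genes of myelinating Schwann cells on the array, Cnp was at the floor on all 21 arrays and the other 8 were above it on at least some arrays of every group. Levels of different probe sets are not compared with each other, and fewer cells of a type cannot be told apart from less RNA per cell in these whole-nerve samples.

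Pmp22 itself, as a check of the genotype labels, gave an incomplete answer. Its probe set 102395_at had a mean index of 5131 ± 292 in P4 KO nerve and 7205 ± 432 in P4 WT nerve (SD, n = 3 each), and 5239 ± 624 in P60 KO nerve (n = 2) against 6895 ± 233 in P60 WT nerve (n = 3). The P60 KO decrease passed limma's test with Benjamini-Hochberg adjustment (log2 change -0.40 ± 0.12 SE, adjusted p = 0.0347), and the P4 KO value did not (-0.49, adjusted p = 0.0605). The second probe set, 161442_at, was dim, with mean indices of 59 ± 17 in P60 KO and 47 ± 9 in P60 TR (SD, n = 2 each). In P60 WT it averaged 122 ± 29 (n = 3). Its decrease passed limma's test in P60 KO (-0.94 ± 0.23 SE, adjusted p = 0.0123) and P60 TR (-1.13 ± 0.23 SE, adjusted p = 0.00656), with -0.15 in P60 TG (adjusted p = 0.871). The TR mean lay under the floor, so its change is a bound, and KO lay close to the floor. The brighter 102395_at did not pass in P60 TR (-0.31, limma adjusted p = 0.175). These values do not settle the labels. On 102395_at the arrays labelled TG had log2 changes of -0.10 at P4 and 0.21 at P60, and neither passed (adjusted p = 0.997 and 0.461). Whether these probes lie inside the deleted part of the gene is not given in the sources used here.

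Tyrp1 (on 97954_at) and Fbp1 read at the floor on all 3 P60 WT arrays. Tyrp1 read above it on all P60 mutant arrays and Fbp1 on those of KO and TG, with TR at the floor. Their promoters are shown. The windows come from RefSeq on GRCm38.p6 and run from 250 bases before to 50 bases after the annotated start, 300 bases each. Of the 7 genes only these 2 had an entry, which is why they are shown. Capitals mark matches to 5 motifs searched on both strands: the M-box core TCATGTG, the AP-1 site TGANTCA, the cyclic AMP element TGACGTCA, the GC box GGGCGG and the SOX core ACAAAG.
Tyrp1, chr4:80833963-80834262, plus strand: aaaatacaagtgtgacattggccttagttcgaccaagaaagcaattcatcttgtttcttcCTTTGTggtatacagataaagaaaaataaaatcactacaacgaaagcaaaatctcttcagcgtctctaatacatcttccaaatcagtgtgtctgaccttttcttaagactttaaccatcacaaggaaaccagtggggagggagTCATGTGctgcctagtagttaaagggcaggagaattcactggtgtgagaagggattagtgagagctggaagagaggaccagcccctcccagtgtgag
Fbp1, chr13:62888233-62888532, minus strand: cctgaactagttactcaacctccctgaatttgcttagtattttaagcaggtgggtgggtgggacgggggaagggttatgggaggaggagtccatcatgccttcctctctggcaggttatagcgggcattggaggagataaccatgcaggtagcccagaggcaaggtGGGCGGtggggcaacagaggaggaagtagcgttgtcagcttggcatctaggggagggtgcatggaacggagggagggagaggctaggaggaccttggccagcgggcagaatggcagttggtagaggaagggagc

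The Tyrp1 window held the M-box core 47 bases before the start, a sequence known in pigment cells as a target of the factor MITF, and the SOX core on the opposite strand 190 bases before it. The Fbp1 window held a GC box 84 bases before the start. The M-box core was present in 3.77% of the 32851 promoters of this length, the SOX core in 18.7%, the GC box in 35.7%, the AP-1 site in 7.81% and the cyclic AMP element in 1.79%. A match describes the letters of the window and no more.

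**Figure D1:**
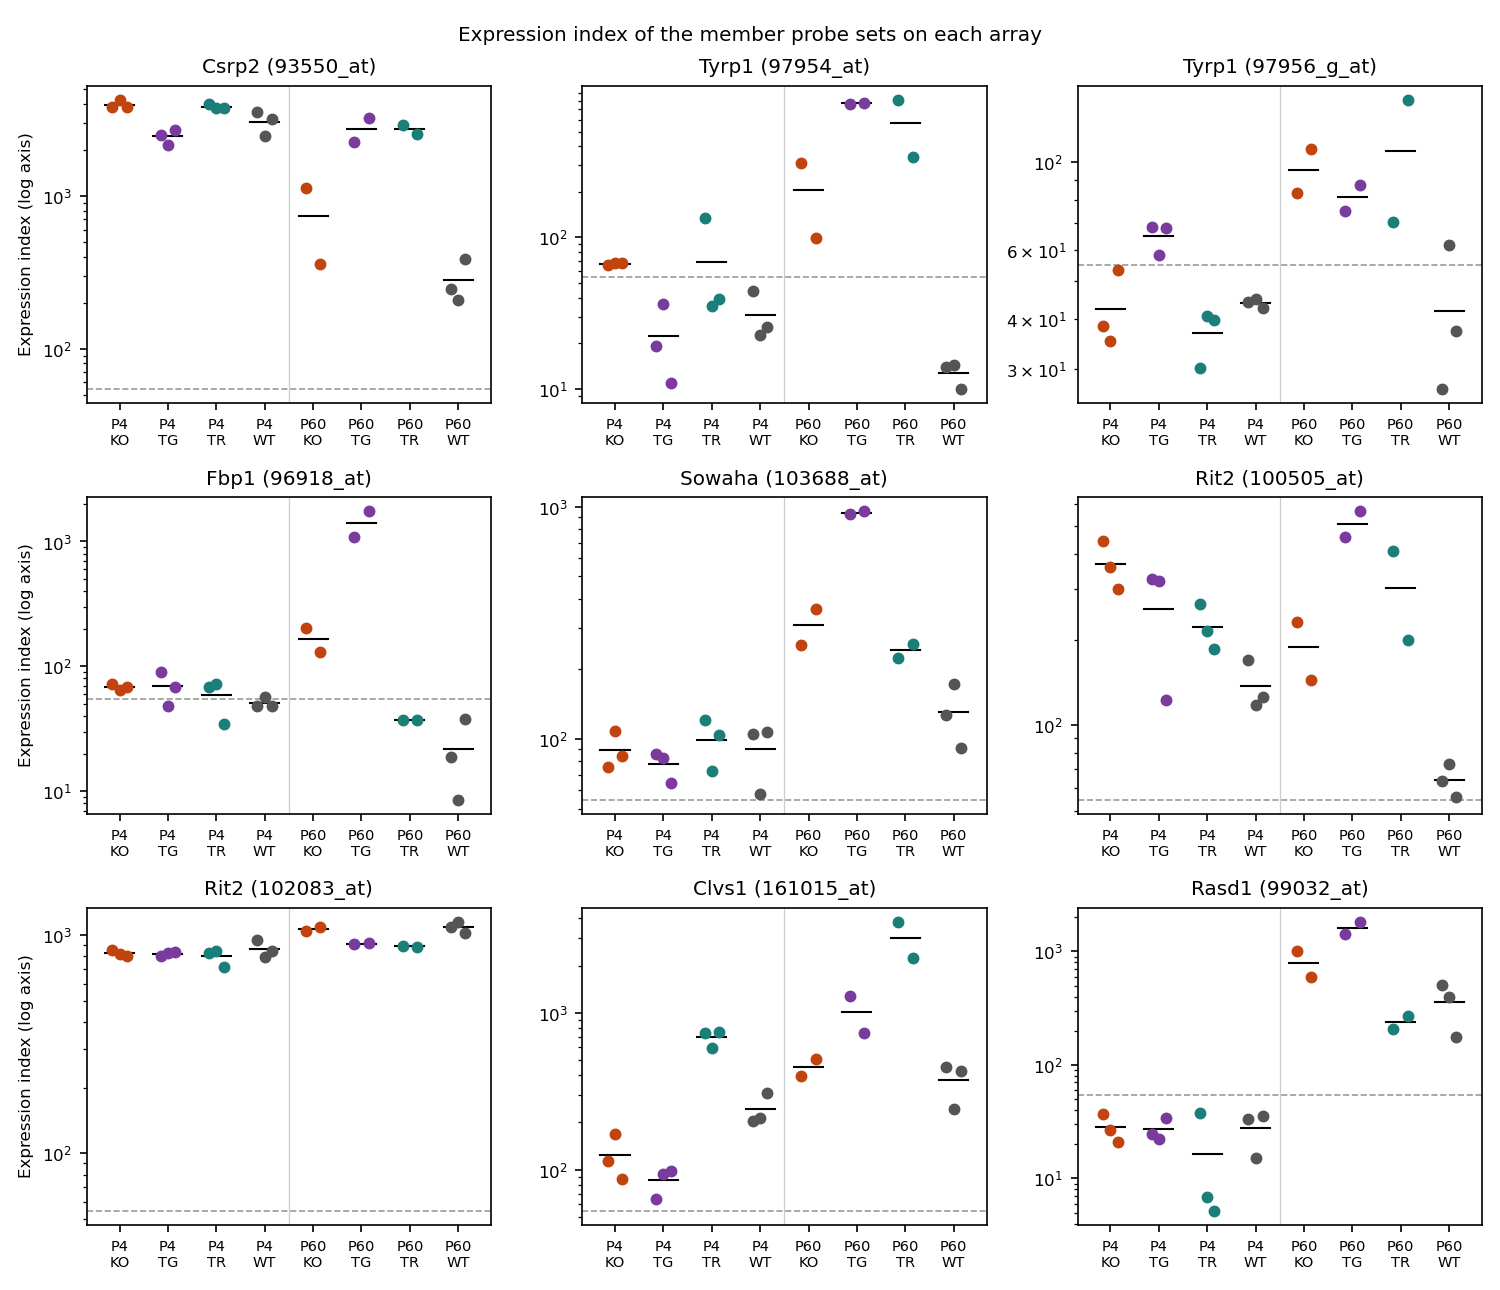
Expression index on a log axis for each of the 9 fitted member probe sets. Points are arrays, short bars are group means, the dashed line is the floor of 54.7, and KO, TG and TR stand left of WT within P4 and within P60. The Tyrp1 97954_at and Fbp1 points of P60 WT lie under the floor, and the P60 TG points lie above all P60 WT points in each panel except Rit2 102083_at.

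At P60 the mutants did not share all rises. All arrays of TG lay above all WT arrays for 8 of the 9 probe sets, and so did those of KO for 6 and those of TR for 6; over all fitted probe sets the same holds for 18.5% in TG, 17.6% in KO and 15.4% in TR, and nothing is read from the members' counts since the rule used this contrast. Rises in KO, TG and TR together were seen for 4 probe sets, of Tyrp1 (both, 97956_g_at near the floor), Sowaha and Rit2 (100505_at). Fbp1 and Rasd1 were higher in KO and TG with TR overlapping WT, and Csrp2 and Clvs1 were higher in TG and TR with KO overlapping WT. The 3 comparisons use the same 3 WT arrays. Both P60 TG arrays were scanned on a day with no other array, so scan day and TG cannot be told apart at P60, and both P60 KO arrays shared a day with a P4 TG array and no WT array.

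Csrp2, a LIM-only protein best known from smooth muscle, stood in adult TG and TR nerve near the P4 WT level. At P60 its index was 1118 and 356 on the KO arrays, 2246 and 3212 on the TG arrays and 2919 and 2528 on the TR arrays, against 247, 209 and 384 on the WT arrays. TG and TR were about 10 times WT and clear of it, whereas the lower KO array lay within the WT range. The log2 changes were 1.22 in KO, 3.31 in TG and 3.33 in TR (± 0.34 SE each), and that of KO depended on 1 array, with 2.05 without KO replicate 2 and 0.40 without KO replicate 1.

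At P4 Csrp2 was high in all genotypes. The index was 3804, 4203 and 3804 in KO, 2493, 2135 and 2693 in TG and 3964, 3749 and 3731 in TR, against 3506, 2452 and 3169 in WT. No P4 mutant passed the test against P4 WT, with log2 changes of 0.39 in KO, -0.31 in TG and 0.34 in TR (limma adjusted p = 0.667, 0.996 and 0.999). WT nerve was far lower at P60 than at P4, with a P60 minus P4 log2 change of -3.48 ± 0.30 SE. The same change was -2.64 in KO, 0.15 in TG and -0.49 in TR (± 0.34 SE), and both P60 TR arrays lay below all P4 TR arrays.

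The P60 level of Csrp2 in TG and TR differed from the P4 WT level by -0.16 and -0.15 (± 0.34 SE, log2), with overlapping arrays. In KO the difference was -2.25, with both arrays under the P4 WT range. The summed index of the 17 measured genes of immature and injured Schwann cells was 8986 to 9184 in P60 KO, 9603 to 10753 in P60 TG and 9449 to 10754 in P60 TR, against 5002 to 6028 in P60 WT, clear of WT in KO too, where Csrp2 was not. By gene, limma called 5 higher and 2 lower in KO, 3 higher and 0 lower in TG, and 5 higher and 1 lower in TR. Over all fitted probe sets 3.03% were called higher and 11.2% lower in KO, 1.42% and 2.38% in TG, and 1.65% and 3.06% in TR. The median log2 changes of the 17 genes were 0.08, 0.17 and 0.11, and none was at the floor on all arrays of a group. Sox2, Pou3f1 and Id2 were higher in all 3 mutants, and Cdh2, an adhesion gene, was lower in KO (-1.44, adjusted p = 0.0387) and TR (-2.46, adjusted p = 0.00285). The sum of 9 measured smooth muscle and pericyte genes was lower in the mutants, with 2565 to 3078 in P60 KO, 3594 to 3929 in P60 TG and 3976 to 4735 in P60 TR, against 4747 to 4934 in P60 WT. Pdgfrb was at the floor in the 3 mutants, and in every P4 group. By gene this list did not fall evenly, as limma called 0 higher and 3 lower in KO, 2 higher and 1 lower in TG, and 0 either way in TR. The same shares of all probe sets stand beside these counts. The median log2 changes were -0.11, -0.15 and -0.13. The part of these cells in the Csrp2 level was not tested.

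Tyrp1, tyrosinase-related protein 1, acts in the melanosome of pigment cells. Probe set 97954_at had an index of 311 and 100 in P60 KO, 765 and 774 in P60 TG and 803 and 337 in P60 TR, against 14, 14 and 10 in P60 WT. Each mutant array was above the floor and each WT array at it, and the lower KO array was the nearest to the floor. Because WT was at the floor the folds are bounds, with Tyrp1 at least 3.22-fold higher in KO, at least 14.1-fold higher in TG and at least 9.51-fold higher in TR. The KO bound on the log2 scale, 1.69 ± 0.41 SE, was 2.51 without KO replicate 2 and 0.86 without KO replicate 1. That of TR, 3.25, was 2.62 without TR replicate 1 and 3.87 without TR replicate 2.

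At P4 Tyrp1 97954_at stayed near the floor. The index was 65, 67 and 68 in KO, 19, 36 and 11 in TG and 134, 35 and 39 in TR, against 44, 23 and 26 in WT. All 3 KO arrays were just above the floor and 1 TR array was clearly above it, and no mutant passed the test (adjusted p = 0.821, 1 and 0.999 for KO, TG and TR). The adult Tyrp1 signal thus did not repeat a level measured at P4 in WT.

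The second fitted Tyrp1 probe set, 97956_g_at, stayed dim. It read 84 and 107 in P60 KO, 75 and 87 in P60 TG and 71 and 143 in P60 TR, against 27, 62 and 37 in P60 WT. The mutant arrays were again above all WT arrays, with log2 changes of 0.73 in KO, 0.51 in TG and 0.82 in TR (± 0.20 SE). With 2 of the 3 WT arrays at the floor these are bounds. With the floor at the 10th percentile they were 1.25 in KO, 1.02 in TG and 1.33 in TR. The KO and TR changes are unsettled: that of KO was -0.33 with scan day as a fixed term. That of TR was 1.33 without TR replicate 1 and 0.31 without TR replicate 2. With the floor at the 30th percentile the TG change was 0.00. All TG and WT arrays were then at the floor, so this value carries no information on the rise. So of 4 Tyrp1 probe sets, 1 was far higher in the mutants and 1 was higher near the floor, with a direction in KO that turned. The other 2 gave no signal above the floor in any group.

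As a group the other pigment cell genes changed far less at P60 than Tyrp1. The median log2 change of the 16 measured was 0.13 in KO, 0.08 in TG and 0.29 in TR. Over all measured genes it was -0.06, 0.00 and 0.01. At an unadjusted limma p under 0.05, 3 were higher and 1 lower in KO, and 2 were higher and 0 lower in each of TG and TR. Mitf, like Tyrp1, was at the floor on all P60 WT arrays but not on all arrays of any P60 mutant group. Tyrosinase (Tyr), the rate-limiting enzyme of melanin synthesis, and Gpr143, a melanosome receptor, were at the floor in all 8 groups. Dct, the related melanin enzyme, had a mean index of 1806 ± 559 in P60 KO, 1710 ± 61 in P60 TG and 1490 ± 27 in P60 TR (SD, n = 2 each) against 1403 ± 127 in P60 WT (n = 3), and did not pass the test in any mutant (adjusted p = 0.443, 0.705 and 0.946). The sum over the 18 pigment genes on the array was 8266 to 8646 in P60 KO, 8238 to 8514 in P60 TG and 8747 to 9351 in P60 TR, against 7743 to 8919 in P60 WT.

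Fbp1, fructose-1,6-bisphosphatase, catalyses a committed step of gluconeogenesis. Its probe set 96918_at read 203 and 130 in P60 KO, 1094 and 1741 in P60 TG and 37 and 37 in P60 TR, against 19, 9 and 38 in P60 WT. TG stood far above every other group, KO was above the floor on both arrays, and TR was at the floor like WT. Fbp1 was at least 25.2-fold higher in TG than in WT and at least 2.97-fold higher in KO, log2 bounds of 4.66 and 1.57 (± 0.22 SE).

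At P4 Fbp1 read 73, 64 and 68 in KO, 90, 48 and 68 in TG and 69, 72 and 34 in TR, against 48, 57 and 48 in WT. These values straddle the floor, and no mutant passed the test, with log2 changes of 0.30, 0.33 and 0.22 (adjusted p = 0.607, 0.906 and 0.999). The adult TG level was 4.31 ± 0.22 above the P4 TG level on the log2 scale.

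Rit2, a Ras-like GTPase known as a neuronal gene, has 2 probe sets that gave different pictures. On 100505_at the index was 231 and 144 in P60 KO, 459 and 565 in P60 TG and 409 and 199 in P60 TR, against 64, 73 and 56 in P60 WT. All mutant arrays were above all WT arrays, which were close to the floor, and the log2 changes were 1.52 in KO, 3.0 in TG and 2.16 in TR (± 0.38 SE), with 3.73 in KO when scan day was a fixed term. On the brighter 102083_at it was 1049 and 1097 in P60 KO, 910 and 917 in P60 TG and 890 and 887 in P60 TR, against 1094, 1145 and 1023 in P60 WT, with log2 changes of -0.02, -0.25 and -0.29 (± 0.12 SE). The KO value turned to 0.21 with quantile normalization and 0.10 with median scaling. The rise of Rit2 therefore stands on 1 of its 2 probe sets.

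At P4 Rit2 100505_at read 445, 360 and 300 in KO, 327, 321 and 123 in TG and 266, 215 and 185 in TR, against 170, 117 and 126 in WT. All KO and all TR arrays were above all WT arrays and TG overlapped WT. None passed the test, with log2 changes of 1.42 ± 0.34 SE in KO (adjusted p = 0.0981), 0.79 in TG (adjusted p = 0.668) and 0.69 in TR (adjusted p = 0.784). With the replicate number as a block the KO value had an adjusted p of 0.0337.

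With age Rit2 100505_at moved differently by genotype. The P60 minus P4 log2 change was -0.99 in KO, 1.12 in TG and 0.38 in TR (± 0.38 SE), against -1.09 ± 0.34 SE in WT. Compared with P4 WT, the P60 level was 0.43 higher in KO with overlapping arrays, 1.91 higher in TG and 1.07 higher in TR. The neuron markers Elavl4, Gad1 and Syt1 were at the floor in all groups at both ages, and the sum over 15 neuron genes was 2050 to 2275 in P60 KO, 2012 to 2129 in P60 TG and 2071 to 2451 in P60 TR, against 2336 to 2555 in P60 WT.

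Rasd1, a GTPase induced by glucocorticoids, was higher at P60 than at P4 in every genotype, WT included. It was at the floor on all 12 P4 arrays. At P60 it read 1001 and 591 in KO, 1414 and 1802 in TG and 206 and 272 in TR, against 506, 397 and 175 in WT. KO and TG were above all WT arrays and TR lay within the WT range, with log2 changes of 1.23 in KO, 2.29 in TG and -0.47 in TR (± 0.32 SE).

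The difference between ages in WT, a log2 change of at least 2.58 ± 0.28 SE, was thus larger than the KO and TR differences from WT at P60. It was close to the TG difference of 2.29 ± 0.32 SE, which uses the same P60 WT arrays. Without single arrays the TG difference ran between 1.83 and 2.60, so the order of these is not settled. The KO difference from WT was 1.61 without KO replicate 2 and 0.85 without KO replicate 1. The TR difference was -0.92 without WT replicate 3, the lowest WT array, and -0.15 without WT replicate 1.

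Sowaha was above the floor on all 21 arrays. Its probe set 103688_at read 254 and 362 in P60 KO, 930 and 953 in P60 TG and 223 and 257 in P60 TR, against 127, 172 and 91 in P60 WT. All mutant arrays were above WT, and TG stood apart from the other two mutants, with log2 changes of 1.27 in KO, 2.90 in TG and 0.93 in TR (± 0.31 SE). At P4 the index was 76, 108 and 84 in KO, 86, 82 and 65 in TG and 121, 72 and 104 in TR, against 105, 58 and 107 in WT. The P4 groups overlapped and none passed the test (adjusted p = 1 for each mutant), so the adult level in all 3 mutants exceeded the P4 WT level, by 1.81 in KO, 3.44 in TG and 1.47 in TR on the log2 scale.

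Clvs1, clavesin 1, was the only member with a call against WT at P4 in the fit reported here. Its probe set 161015_at read 113, 170 and 87 in P4 KO, 65, 94 and 98 in P4 TG and 739, 597 and 758 in P4 TR, against 204, 214 and 308 in P4 WT. The order at P4 was TR above WT above KO and TG, with no overlap between TR, WT and the KO and TG arrays. The P4 TR rise (log2 change 1.54 ± 0.31 SE, adjusted p = 0.0316) and the P4 TG decrease (-1.50 ± 0.31 SE, adjusted p = 0.0307) passed limma's test, and the P4 KO value of -1.0 did not (adjusted p = 0.235).

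These were the calls among the 9 member probe sets at P4: none in KO, 1 in TG and 1 in TR, where 0.355%, 0.555% and 0.437% of all fitted probe sets were called. At an unadjusted p under 0.05 the counts were 2, 2 and 1. Both Clvs1 calls were lost when scan day entered the fit as a fixed term (log2 change -2.27 with adjusted p = 0.696 in TG and 1.48 with adjusted p = 0.419 in TR), when dim probe sets were kept (0.0726 and 0.0683), and when only the compared groups were fitted (0.273 and 0.174). Over all alternatives the adjusted p ran between 0.0185 and 0.696 for TG and between 0.019 and 0.419 for TR, 8 of 16 keeping each call. Without single arrays the TG call held only without TG replicate 3, and the TR call only without WT replicate 3. On the scan day shared by a TR and a WT array at P4, Clvs1 read 597 in TR and 214 in WT. No P4 KO or P4 TG array shared a scan day with a P4 WT or P4 TR array. Scan day and genotype therefore cannot be fully told apart in those P4 comparisons. With scan day as a random block, arrays of a day had a correlation of 0.396, which the reported fit leaves out.

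Between the mutants at P4, comparisons chosen after the values were seen, Clvs1 was 2.55 ± 0.31 SE higher in TR than in KO (limma adjusted p = 0.000214) and 3.04 ± 0.31 SE higher in TR than in TG (adjusted p = 6.3e-05), log2. Of all fitted probe sets 0.409% and 0.146% were called in these comparisons, in either direction. Over 8 alternatives each (single arrays left out, a random scan-day block or a replicate block) both stayed past the threshold. The largest limma adjusted p was 0.00275 and 0.000989. Scan day as a fixed term, no filter on dim probe sets and the compared groups alone were not run here. Those settings lost both Clvs1 calls against WT. Scan day and genotype cannot be fully told apart in these comparisons either. TG against KO did not pass (-0.49, adjusted p = 0.561).

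At P60 Clvs1 read 396 and 509 in KO, 1269 and 739 in TG and 3766 and 2236 in TR, against 451, 243 and 425 in WT. TR stood above all other groups, TG was between TR and WT, and KO overlapped WT, with log2 changes of 0.32 in KO, 1.43 in TG and 3.01 in TR (± 0.34 SE). The KO value was -0.17 with scan day as a fixed term. TG was thus below WT at P4 and above it at P60. The P60 minus P4 log2 change of Clvs1 was 1.92 in KO, 3.52 in TG and 2.06 in TR (± 0.34 SE), against 0.60 ± 0.31 SE in WT. The sum over the 15 neuron genes, since Clvs1 is known from neurons, was 2579 to 3528 in P4 TR against 2196 to 2365 in P4 WT, and 2071 to 2451 in P60 TR against 2336 to 2555 in P60 WT; its part in the Clvs1 level was not tested.

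**Figure D2:**
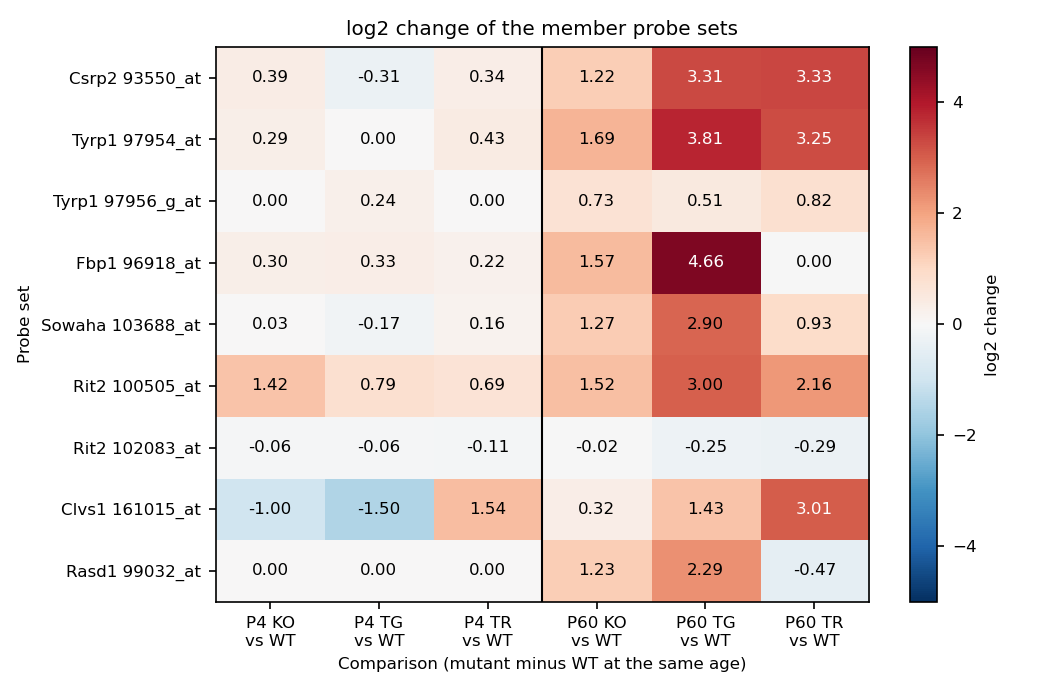
log2 change of the 9 fitted member probe sets (rows), mutant minus WT at the same age, in 6 comparisons (columns: KO, TG and TR at P4, then at P60). Red is higher and blue lower in the mutant; the P60 columns are a description, since the genes were picked on it, and values against a group at the floor are bounds. At P4 the deepest colours are those of Clvs1, 1.54 in TR and -1.50 in TG, and of Rit2 100505_at in KO, 1.42.

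**Figure D3:**
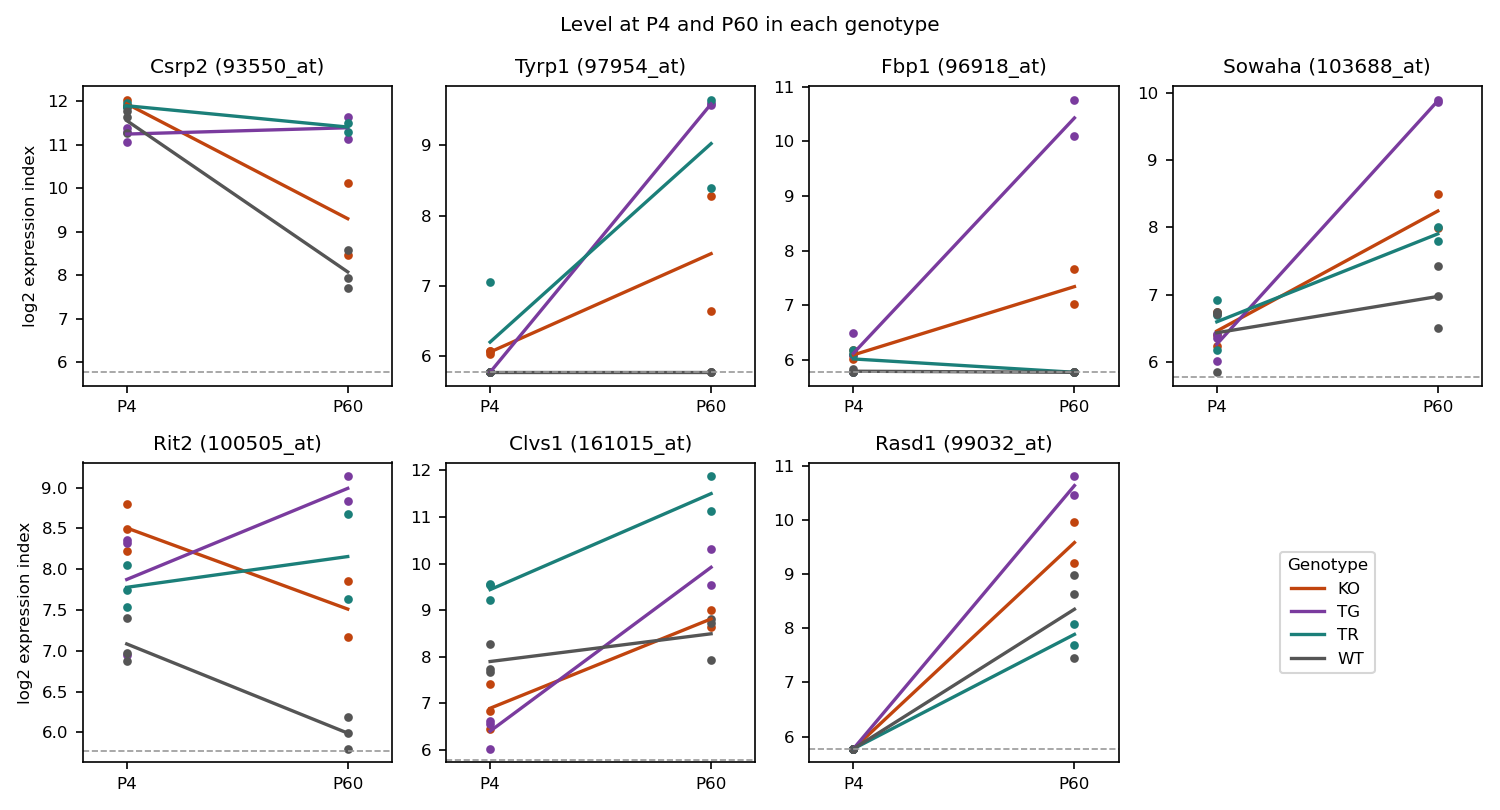
log2 expression index at P4 and P60 for 1 probe set of each member, the one with the P60 rise. Points are arrays, lines join the group means of each genotype and the dashed line is the floor. Csrp2 is far lower at P60 in WT and KO, slightly lower in TR and about level in TG, whereas Rasd1 leaves the floor in all 4 genotypes.

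TR replicate 1 and WT replicate 3 of P60 were scanned on the same day. These are among the values the genes were picked on, with 1 array on each side, so they are a description and no support. Between these arrays the log2 difference was 2.93 for Csrp2, at least 3.87 for Tyrp1 97954_at, 0.37 for Tyrp1 97956_g_at, 2.88 for Rit2 100505_at, 3.15 for Clvs1 and 1.29 for Sowaha. Fbp1 was at the floor on both arrays, and Rasd1 differed by 0.24.

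Measured against P4 WT, the adult mutant levels fell into different kinds. Csrp2 overlapped the P4 WT range, with both TR arrays and the higher TG array inside it and the lower TG array below it. Rit2 100505_at in KO overlapped the P4 WT range, with TG and TR above it. Tyrp1, Fbp1 (KO and TG), Sowaha, Clvs1 and Rasd1 were above all P4 WT arrays in the mutants in which they rose, Clvs1 by 2.03 in TG and 3.61 in TR, log2. Rasd1 was above all P4 WT arrays in P60 WT as well. Of all fitted probe sets, 23.5% in P60 KO, 24.7% in P60 TG and 21.8% in P60 TR lay above all P4 WT arrays. The rule used these P60 values, so the positions of the members are a description.

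The genes whose levels over the 21 arrays were most like each member were found by Pearson's r of log2 values with the member's brightest probe set, a description in which arrays share age, genotype and scan day. Csrp2 was followed most closely by Bzw2 (r = 0.938) and Sh3gl3 (0.923). Bzw2 averaged an index of 1015 in P60 KO, 1344 in P60 TG and 2142 in P60 TR, against 494 in P60 WT and 2329 in P4 WT. Tyrp1 was followed by Fos (0.913), an immediate early transcription factor, and Aopep (0.910), an aminopeptidase, and Fbp1 by Mertk (0.937), a phagocytic receptor kinase, and F13b (0.927). Fos was dim, with group means between 27 and 123, so values at the floor on both sides weigh on its r. F13b stayed near the floor, with group means between 38 and 66. Mertk averaged 96 in P60 KO, 285 in P60 TG and 69 in P60 TR, against 59 in P60 WT.

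Sowaha was most like Cipc (0.908), a regulator of the circadian clock, and Gpam (0.907), an enzyme of triglyceride synthesis. Rasd1 was most like Sgk1 (0.960) and Klf9 (0.945), both known targets of the glucocorticoid receptor. Sgk1 averaged 3756 in P60 KO, 4534 in P60 TG and 2386 in P60 TR, against 2824 in P60 WT, and 1358 in P4 WT. For the bright Rit2 probe set, the one without a P60 rise, the nearest were Kcnq1 (0.933) and Fam167b (0.905).

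Clvs1 was most like Hspa1a (0.846) and Hspa1b (0.813), which encode inducible heat shock proteins. Hspa1a averaged 1721 in P4 TR against 79 in P4 WT, and 1876 in P60 TR against 470 in P60 WT. In the other mutants it averaged 86 in P4 KO and 87 in P4 TG, then 313 in P60 KO and 452 in P60 TG. Hspa1b averaged 4370 in P4 TR against 383 in P4 WT, and 3725 in P60 TR against 1247 in P60 WT. Both were high in TR at both ages, as Clvs1 was.

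Genes related to the members by pathway or family were taken from 7 lists with 169 genes, of which 105 were measured. At P60 limma called 16 of them in KO (2 higher, 14 lower), 6 in TG (1 higher, 5 lower) and 10 in TR (1 higher, 9 lower). These are 15.2%, 5.71% and 9.52%, beside 14.3%, 3.80% and 4.70% of all probe sets, and in KO the share is near that background. By direction 3.03%, 1.42% and 1.65% of all probe sets were called higher and 11.2%, 2.38% and 3.06% lower. The median log2 change over the 105 genes was -0.15, -0.05 and -0.12, beside -0.06, 0.00 and 0.01 over all measured genes. The KO count was 4 without KO replicate 2 and 0 when scan day was fitted as a fixed term. At P4 the counts were 1 in KO, 3 in TG and 0 in TR (6 in TR at an unadjusted p under 0.05), beside 0.355%, 0.555% and 0.437% of all probe sets.

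The glycolysis and gluconeogenesis list, around Fbp1, held most of the lower calls. Of its 22 measured genes 9 were lower in P60 KO, 4 in P60 TG and 6 in P60 TR, and none was called higher in limma; at an unadjusted p under 0.05 none in KO, 1 in TG and none in TR was higher. Aldoc, an aldolase, fell in all 3 mutants, with a mean index of 133 ± 11 in P60 KO, 120 ± 27 in P60 TG and 116 ± 25 in P60 TR, against 513 ± 49 in P60 WT (log2 changes -1.94, -2.11 and -2.15, adjusted p = 0.000288, 9.59e-05 and 7.07e-05). It was also lower in P4 KO (-1.15 ± 0.23 SE, adjusted p = 0.0393). Ldhb, a lactate dehydrogenase subunit, fell in P60 KO (-1.03 ± 0.16 SE), and Pgam2, the muscle form of phosphoglycerate mutase, fell in P60 TG (-1.56 ± 0.30 SE, adjusted p = 0.00631) and in P60 TR, where it was at the floor (at least as far as -1.94, adjusted p = 0.000848). Pgam2 was at the floor on all P60 KO arrays too. The sum over 18 skeletal muscle genes moved with these, with 3292 to 8376 in P60 KO, 9957 to 21817 in P60 TG and 4014 to 9365 in P60 TR, against 26387 to 42739 in P60 WT. Pygm was at the floor in the 3 mutants and Ryr1 in KO and TR, and the part of muscle in these calls was not tested. Fbp2, the muscle bisphosphatase, and G6pc, the last enzyme of gluconeogenesis, did not pass in any mutant.

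Among 16 measured pigment cell genes 1 was called higher in P60 KO and 1 in P60 TG. The P60 KO call was Mitf, the pigment cell transcription factor, at 81 ± 17 in KO (n = 2) against a floor level in all 3 WT arrays (log2 change of at least 0.56, adjusted p = 0.023). In P60 TG it was Kit, the stem cell factor receptor, at 378 ± 61 in TG against 115 ± 21 in WT (1.72 ± 0.37 SE, adjusted p = 0.0117). At P4 Ednrb, the endothelin receptor of neural crest cells, was higher in TG (1.62 ± 0.31 SE, adjusted p = 0.0178).

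Of 15 measured relatives of the GTPases Rit2 and Rasd1, 4 were lower in P60 KO, 1 in P60 TG and 2 in P60 TR. Rras fell in KO (-1.65 ± 0.24 SE) and TR (-1.10 ± 0.24 SE), Nkiras1 in KO (-0.88 ± 0.24 SE), and Mras, a GTPase abundant in muscle, in TG (-1.43 ± 0.32 SE) and TR (-1.80 ± 0.32 SE). Rit1, the closest relative of Rit2, was not called in any mutant at either age. Of the 23 LIM domain genes, around Csrp2, Crip1 was lower in P60 KO (-1.61 ± 0.50 SE, adjusted p = 0.0413) and Lims1, an adaptor of integrin adhesions, higher in P60 TR (0.69 ± 0.18 SE). Csrp1, the sister gene of Csrp2, had P60 log2 changes of 0.47 in KO, 0.03 in TG and -0.47 in TR and was not called.

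The glucocorticoid response list, around Rasd1, had 1 call higher in P60 KO and 1 lower in P60 TR of 19 measured genes. At an unadjusted p under 0.05 there were 2 higher and 3 lower in KO, 2 higher and 1 lower in TG, and none higher and 8 lower in TR, where the list median was -0.39 beside 0.01 over all measured genes. Bcl6, a transcriptional repressor, was higher in KO (0.65 ± 0.13 SE) and Errfi1, an inhibitor of the EGF receptor, lower in TR (-1.80 ± 0.30 SE). Ddit4, a stress-induced inhibitor of mTOR signalling, was higher in P4 TG (0.95 ± 0.20 SE). None of 9 measured CRAL-TRIO domain relatives of Clvs1 was called at P60 in limma in any mutant, and 1 was lower in KO at an unadjusted p under 0.05. Sowahc, the only measured relative of Sowaha, was lower in P4 TG (-1.57 ± 0.30 SE, adjusted p = 0.0181) and not called at P60.

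**Figure D4:**
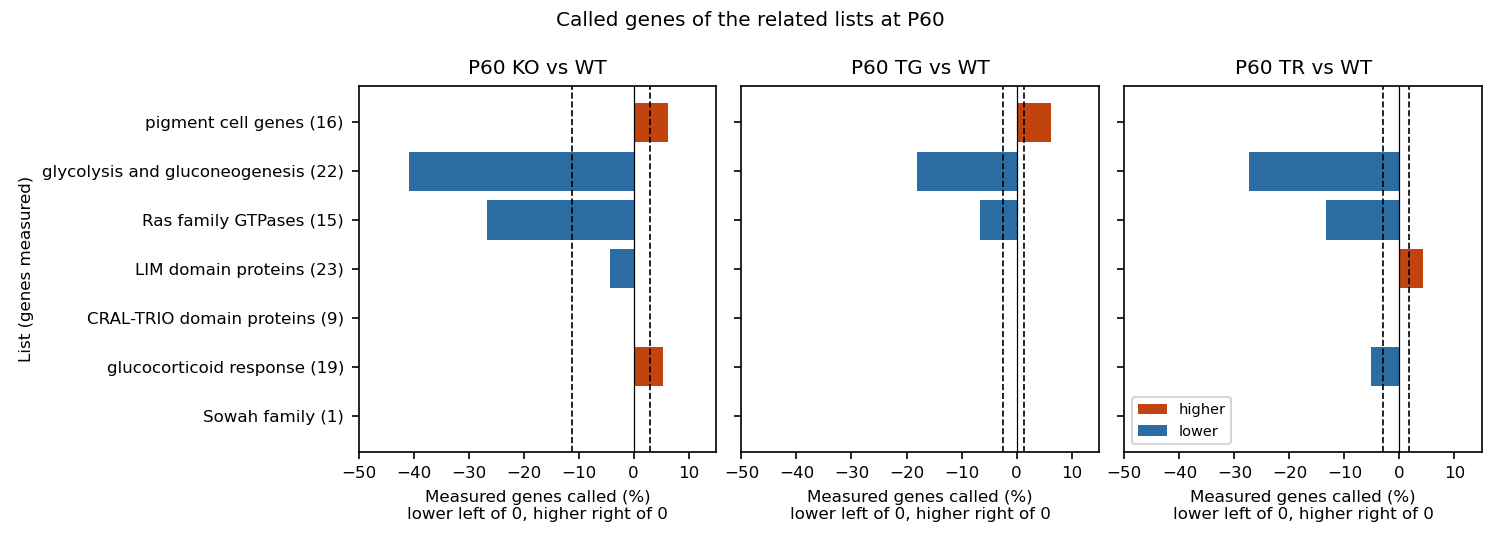
Percent of the measured genes of each of 7 related lists called by limma at P60, for KO, TG and TR against WT; bars left of 0 are genes lower and right of 0 higher in the mutant. Dashed lines give the share of all fitted probe sets called in that direction, and the number of measured genes stands beside each list name. The glycolysis and gluconeogenesis list has the longest bars to the left in all 3 panels, 9, 4 and 6 of 22 genes.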

How the data were processed

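The deposited values are model-based expression indices, a linear intensity which may be negative; per the labels, the authors amplified RNA by 2 rounds of in vitro transcription, normalized the arrays with a smoothing spline in dChip and took probe sensitivities from 27 arrays (18 in 1 label). Depth has no meaning for arrays, whose number limits the precision. No array was scaled again, and an intensity below 54.7 (20th percentile) was raised to it.

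Group means of all 8 groups were fitted on log2 values with limma 3.58.1 in R 4.3.3 (trended eBayes, Benjamini-Hochberg over 10994 probe sets, threshold 0.05), checked on simulated data. Python 3 scripts searched promoters and drew plots. Members, lists and comparisons were chosen with earlier results of these data known. Same-numbered P4 TR and P4 WT arrays deviated together (r = 0.193, 0.531 and 0.441). The sample titles give a number and no pairing, and the replicate 2 arrays also shared a scan day, so a pairing is not settled. The replicate block changed no Clvs1 call. 

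Named genes were all members, Pmp22 and the 2 genes most like each member's brightest probe set. From each related list and comparison up to 2 higher and 2 lower called genes were named, by adjusted p. Tyr, Gpr143, Dct, Fbp2, G6pc, Rit1 and Csrp1 were added after their values were seen. Sox2, Pou3f1, Id2 and Cdh2 came from a cell type list and were named outside this rule. So were the cell type markers named for lying at the floor. A gene of a list counts by its brightest probe set. Alternatives were other floors, no filter, median or quantile scaling, no trend, the compared groups alone, scan day and replicate number as blocks, and single arrays left out. Where an arm kept 1 array, it is assumed to vary like the other groups.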

Additional observations from a re-analysis of the deposited data

Results flagged for a closer look

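Clvs1 161015_at changed sides in TG nerve between the ages. Every P4 TG array (65, 94 and 98) lay below every P4 WT array (204, 214 and 308), a log2 change of -1.50, and every P60 TG array (1269 and 739) lay above every P60 WT array (451, 243 and 425), a log2 change of 1.43. The difference between the ages was not tested, because the gene was picked for its P60 level. All P60 TG arrays were scanned on a day of their own. No group had more than 3 arrays, so single arrays could not be checked as outliers within a group. Among all 21 arrays P60 KO replicate 2 had the most values at or below 0, 167, with 120 on the next, P4 WT replicate 2. It also had the lowest median index, 177.4, whereas its share of probe sets above the floor, 79.8%, lay within the range of the other arrays. The part of this in the P60 KO values was not tested.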

How the results depend on the processing

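The P4 calls among the members, none in KO and 1 (Clvs1) in each of TG and TR, became 0 in TG and 0 in TR without the filter on dim probe sets or with scan day fitted as a fixed term. With the compared groups alone they were 1 in KO (Tyrp1 97954_at, adjusted p = 0.0189), 0 in TG and 0 in TR. With the replicate number as a block KO had 1 call (Rit2 100505_at, adjusted p = 0.0337). KO and TG share only a number with WT (correlations of same-numbered deviations 0.09, -0.35 and 0.21 for KO and 0.23, -0.26 and 0.11 for TG), so this block result pairs nothing by design, and it changed no other call among the members. Without single arrays the counts were 0 in KO and between 0 and 1 in TG and TR. Floors, scaling, quantile normalization, no trend and a random scan-day block kept both Clvs1 calls.

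The related genes called at P60, 16 in KO, 6 in TG and 10 in TR, were 0, 1 and 2 with the compared groups alone. With scan day fixed they were 0 in KO and 4 in TR, and TG could not be fitted. With scan day as a random block KO had 7 and TG 2. Without single arrays they ran between 4 (without KO replicate 2) and 23 in KO, 1 and 5 in TG, and 6 and 13 in TR. All probe sets called at P60 ran between 5 and 2325 in KO (1568 as reported), 113 and 491 in TG (418) and 79 and 701 in TR (517). Described P60 changes changed sign with scan day fixed for Clvs1 in KO (-0.17), Tyrp1 97956_g_at in KO (-0.33) and Rasd1 in TR (0.24), and for Rit2 102083_at in KO with quantile normalization (0.21), median scaling (0.10), and without WT replicate 2 (0.02) or KO replicate 1 (0.01). The causes were not tested. Signal over background limits Tyrp1 and Fbp1, whose bounds move with the floor: over all alternatives the TG log2 bound ran between 3.13 and 4.81 for Tyrp1 97954_at and between 3.97 and 5.50 for Fbp1. The P60 KO change of Rit2 100505_at ran between 1.05 and 3.73.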
